A study of Ambystoma mexicanum with 8 samples.

Results

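Of the 91843 contigs that were assembled from axolotl (*Ambystoma mexicanum*) limb stumps, 4 are described here. They are `TR10064|c1_g1_i1` (STAU1), `TR11067|c0_g2_i1` (BICD2), `TR26598|c1_g1_i2` (UBP19) and `TR26334|c2_g1_i2` (LAAT1). They were chosen by their counts in these same libraries, since each had fragments in every control library and none in any library of repeatedly amputated limbs. That difference is therefore a description here and carries no test. A contig is a transcript pieced together from overlapping reads without a genome, and the protein names are the closest known proteins in the study's table of differentially expressed transcripts. The question asked of each contig was whether related contigs took up its fragments, or whether the transcript as a whole was lost.

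All animals were wild-type axolotls of the leucistic strain. The 4 repeatedly amputated limbs (MR14, MR2, MR5 and MR6) came from animals whose limbs had failed to regenerate after 5 rounds of amputation and then received a 6th amputation slightly closer to the body. The 4 control limbs (Control1, Control3, Control4 and Control6) came from sibling animals without earlier injury and were amputated for the first time. In both groups the stump tissue was taken at 3 days post-amputation, the wound healing stage, with a separate animal behind each library. The values of a group are always listed in the order in which its limbs are named here. The failed regenerates were selected for their failure, so the number of amputations and the state of a failed stump cannot be told apart. Bulk tissue was sequenced, in which fewer cells of a type and less RNA per cell cannot be told apart either.

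The 4 proteins do different work in the cell. STAU1 (Staufen) binds double-stranded stretches of mRNA and takes part in moving mRNAs along microtubules and in their decay. BICD2 (Bicaudal D) is an adaptor that couples cargo to the dynein motor. UBP19 (gene USP19) is a deubiquitinase, an enzyme that removes ubiquitin from proteins, and is known in mammals from work on muscle wasting and on the endoplasmic reticulum. LAAT1 (gene SLC66A1) exports the basic amino acids lysine and arginine from lysosomes.

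How reads are divided matters for such contigs. Trinity's contig names hold a TR number, called the read cluster here, then a component (c), an assembled gene (g) and an isoform (i). Alleles or splice forms of a gene can end up as near-identical contigs. No sequence was read here, so a shared TR number is not taken to show that contigs belong to the same gene. RSEM then assigns each fragment to contigs, and where a fragment matches several it is divided among them in the proportions that make the data most likely. The expected counts that result can be fractional. A contig can in this way receive 0 fragments because its relatives received them.

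The 8 libraries held 15596527 to 18437103 expected counts, of which 91.5% of the values were whole. CPM are counts per 1000000, with library sizes scaled by TMM. Over all 32757 contigs tested with edgeR's quasi-likelihood test, 0.0122% had an FDR (Benjamini-Hochberg adjusted p) under 0.05. Summed CPM of 70 muscle contigs were 69.0 to 1120 in control and 539 to 12090 in repeatedly amputated limbs, with overlap. Those of 3 epidermal contigs were 897 to 3879 and 105 to 237, without overlap. Those of 8 contigs named for immunoglobulins or an immunoglobulin receptor (PIGR) were 545 to 932 and 160 to 294, also without overlap. All 3 sets were picked by name from the study's table of transcripts called different on these same libraries, which favours such separation. TGM1, LAMA3 and LAMB3, also epidermal names of that table, were higher there after repeated amputation. The part of these differences in tissue make-up in the values below was not tested.

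The STAU1 contig was the weakest of the 4 per length. It had 18.69, 37.76, 55.56 and 37.69 counts in the controls and 0 in each repeatedly amputated limb. Control4 was highest and Control1 lowest. In CPM this was 2.11 ± 0.907 (SD, n = 4) in control limbs, and the deposited FPKM averaged 0.650 ± 0.258 (SD, n = 4). Against a floor of 3 counts in each library, the limit that counting error alone allows for a 0, it was at least 11.3-fold lower in repeatedly amputated limbs.

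The BICD2 contig was about as low in fragments, with 58.28, 24.66, 55.33 and 28 counts in the controls and 0 in all 4 repeatedly amputated limbs. Control1 and Control4 stood above Control3 and Control6. Its control level was 2.32 ± 0.974 CPM (SD, n = 4), and it was at least 12.4-fold lower in repeatedly amputated limbs. As a shorter contig it reached 2.51 ± 1.09 FPKM (SD, n = 4).

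The UBP19 contig carried the most fragments, at 80, 710.58, 391.6 and 351.51 counts in the controls. Control1 stood well below the other control limbs, and the repeatedly amputated limbs were all at 0. Its control level was 21.4 ± 13.7 CPM (SD, n = 4), or 3.39 ± 2.16 FPKM (SD, n = 4), and the bound was at least 115-fold lower.

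The LAAT1 contig had 380, 118.41, 32.14 and 457 counts in the controls and again 0 in every MR limb. The control limbs split into a high and a low pair. The control level was 13.9 ± 11.8 CPM (SD, n = 4), or 1.77 ± 1.50 FPKM (SD, n = 4), and the contig was at least 74.5-fold lower in repeatedly amputated limbs. These bounds cover counting error only, and not error in how RSEM divided fragments between similar contigs. They set the mean of the control limbs against the floor and leave out the spread between control limbs. That spread was 4.27 to 37.7 CPM for UBP19 and 1.86 to 27.2 CPM for LAAT1, so the bounds do not hold for each control limb. They rest on the 0 counts for which the 4 contigs were chosen.

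For each of the 4 contigs, fractional counts pointed to exactly 1 other contig of its read cluster that shared its fragments. In every library where either count was fractional, the fractional parts of both added up to a whole number, within 0.015. The rule cannot see sharing that left whole counts, and for LAAT1 it rests on Control3 and Control4. The other contig found in this way is called the partner here. It was TR10064|c1_g2_i1 for STAU1 and TR11067|c0_g1_i1 for BICD2, which Trinity had counted as separate genes of the same component. For UBP19 it was TR26598|c1_g1_i1 and for LAAT1 TR26334|c2_g1_i1, in each case an isoform of the same assembled gene. None of the partners is listed in the study's table of differentially expressed transcripts, so whether they match a known protein cannot be read from it. Over all contigs 8074 had such a partner, which makes 4037 pairs.

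Contig and partner were nearly the same length. Dividing counts by FPKM gives the length over which fragments were counted, and the ratio between contig and partner over the control limbs was 0.997 to 1.01 for STAU1, 0.995 to 1.00 for BICD2, 1.00 to 1.00 for UBP19 and 0.977 to 0.990 for LAAT1, the last from the control limbs in which both were above 0. The length itself was roughly 3247 bases for the STAU1 contig, 941 for BICD2, 6267 for UBP19 and 8052 for LAAT1.

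**Figure D1:**
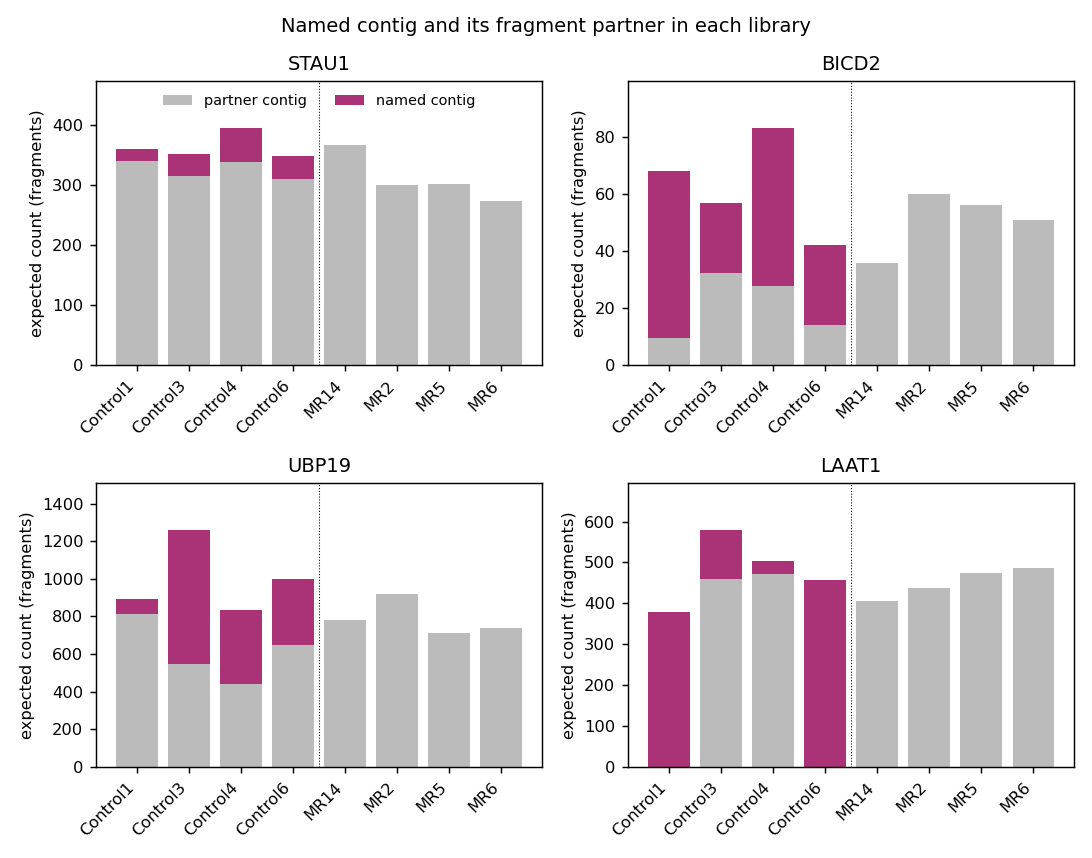
Expected counts (vertical axes, fragments) of each named contig (purple) stacked on those of its partner (grey) in the 4 control libraries (left of the dotted line) and the 4 libraries of repeatedly amputated limbs (right). Purple is seen only on the left, while the full height of the bars, such as 380 to 579 fragments for LAAT1 in control and 405 to 486 in repeatedly amputated limbs, overlaps between the groups in all 4 panels.

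The partner of STAU1 had 341.31, 315.24, 339.44 and 311.31 counts in the controls, then 367, 301, 303 and 274 after repeated amputation. The groups overlapped, at 18.3 ± 1.19 and 19.4 ± 3.12 CPM (SD, n = 4 each). Per length the partner held 5.72 ± 0.387 FPKM in control limbs, so it was the major form of the pair in every library. The STAU1 contig made up 5.19%, 10.7%, 14.1% and 10.8% of the pair in the controls. In repeatedly amputated limbs RSEM gave it 0 of 1245 fragments, pooled over the limbs, of which the floor of 3 would be 0.241%. This share and those given for the other pairs leave out the spread between limbs and error in RSEM's division. They also rest on the 0 counts for which the contigs were chosen.

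Summed over the pair, STAU1 stood at 360, 353, 395 and 349 counts in the controls, then 367, 301, 303 and 274. MR14 lay within the control range and the other three below it in counts, while in CPM the groups overlapped further, at 20.4 ± 1.83 and 19.4 ± 3.12 (SD, n = 4 each). The log2 fold change of the sum was -0.07 (SE 0.133), with a 95% interval that reaches from 0.773-fold to 1.17-fold. The named contig averaged only 10.2% of this pair in the controls, and its loss alone would lie within that interval. For STAU1 the pair sum therefore cannot tell a loss of the contig from uptake of its fragments by the partner.

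In the BICD2 pair the named contig was the larger one in 3 of the 4 control limbs. The partner had 9.72, 32.34, 27.67 and 14 counts in the controls, then 36, 60, 56 and 51 after repeated amputation. All of the latter lay above all of the former once scaled for depth, at 3.15 ± 0.605 against 1.17 ± 0.582 CPM (SD, n = 4 each), a log2 fold change of 1.42 (SE 0.375). Over all tested contigs, 3.29% were higher and 3.07% lower in repeatedly amputated limbs without overlap. Since fragments of the pair that do not go to the named contig go to the partner, the partner's difference is not independent of how the 4 were chosen and is given without a test.

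The share of the BICD2 contig in its pair was 85.7%, 43.3%, 66.7% and 66.7% in the controls. In repeatedly amputated limbs it was 0 of 203 fragments. The floor of 3 would be 1.48% of these when pooled, and 5% to 8.33% limb by limb. The pair as a whole had 68, 57, 83 and 42 counts in the controls, then 36, 60, 56 and 51. These ranges overlapped widely, at 3.49 ± 0.986 and 3.15 ± 0.605 CPM (SD, n = 4 each). The log2 fold change of the sum was -0.15 (SE 0.241), and with so few fragments the 95% interval is the widest of the 4, from 0.619-fold to 1.32-fold.

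For UBP19 the partner had 813, 548.42, 442.4 and 648.49 counts in the controls, then 779, 917, 712 and 741 after repeated amputation. In CPM the groups did not overlap, at 34.2 ± 8.28 and 48.9 ± 5.30 (SD, n = 4 each), a log2 fold change of 0.52 (SE 0.178). In control limbs the partner was highest in Control1, the library in which the named contig was lowest. The named contig made up 8.96%, 56.4%, 47.0% and 35.2% of the pair in the 4 control limbs. In repeatedly amputated limbs it had 0 of 3149 pooled fragments, of which the floor of 3 would be 0.0953%.

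The UBP19 pair summed to 893, 1259, 834 and 1000 counts in the controls, then 779, 917, 712 and 741. MR2 lay above Control1 and Control4, and the groups overlapped at 55.5 ± 9.27 and 48.9 ± 5.30 CPM (SD, n = 4 each). The log2 fold change of the sum was -0.18 (SE 0.137), with a 95% interval from 0.711-fold to 1.09-fold.

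The split of the LAAT1 pair differed widely between control limbs. The partner had 0, 460.59, 470.86 and 0 counts in the controls, so the named contig made up 100%, 20.5%, 6.39% and 100% of the pair there. After repeated amputation the partner had 405, 438, 475 and 486 counts. The named contig had 0 of 1804 pooled fragments there, of which the floor of 3 would be 0.166%. Control3 and Control4 thus resembled the repeatedly amputated limbs more than they did the other control limbs. The pair summed to 380, 579, 503 and 457 counts in the controls, then 405, 438, 475 and 486 after repeated amputation, or 26.8 ± 4.57 and 28.0 ± 1.91 CPM (SD, n = 4 each). The log2 fold change of the sum was 0.06 (SE 0.135), with a 95% interval from 0.845-fold to 1.29-fold.

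None of the 4 pair sums separated the groups. For STAU1 the sum could not show a loss, since the named contig was a small part of its pair. Among all 4037 pairs, 6.44% had sums without overlap, and in the fit with pairs summed 0.00324% of 30844 units had an FDR under 0.05. A pair sum includes the contig that was chosen for being at 0 in 1 group, so it is not independent of that choice either, and the intervals do not show that the sums were equal.

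How often a contig came and went within a group was counted over all pairs, at a lower bar than the change seen for LAAT1. Among the 2718 pairs with at least 20 counts in every library, 767 (28.2%) had a contig at 0 in at least 1 control limb that made up 20% or more of the pair in another control limb. Within the repeatedly amputated limbs this was so for 800 pairs (29.4%), and over all 8 libraries for 1027 (37.8%).

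**Figure D2:**
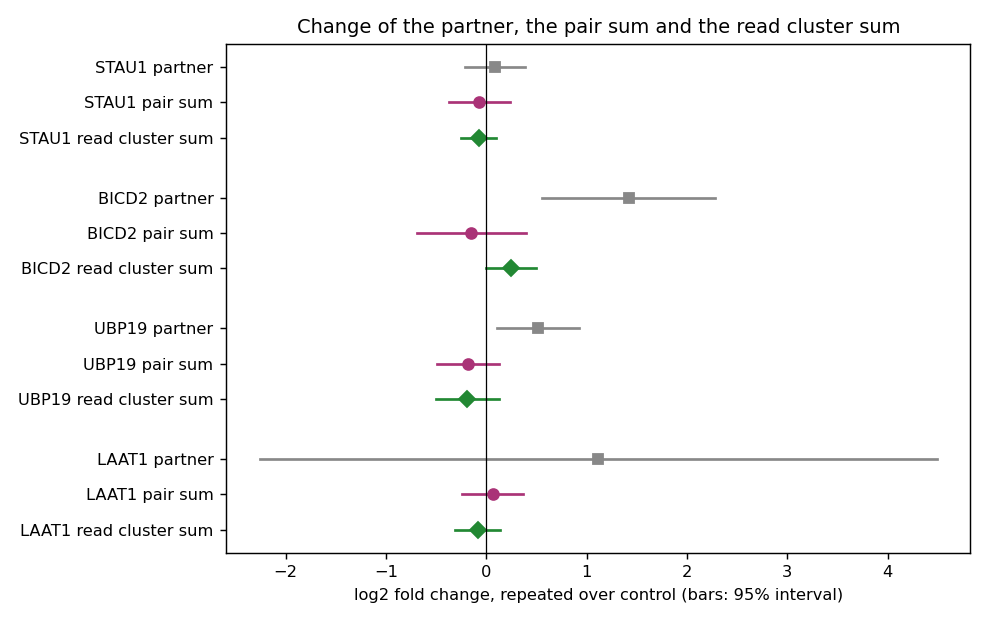
Log2 fold changes of repeatedly amputated over control limbs (horizontal axis) for the partner (grey squares), the pair sum (purple circles) and the whole read cluster (green diamonds) of each named contig. Bars are 95% intervals of edgeR's quasi-likelihood fit. The 4 pair sums lie between -0.18 and 0.06, each with an interval that spans 0.

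The rest of each read cluster was followed next. Beside the 4 named contigs these clusters hold 51 others, of which 37 passed the filter on low counts, 18 higher and 19 lower in repeatedly amputated limbs with a median log2 fold change of -0.02. In edgeR's quasi-likelihood test 0 of the 37 reached an FDR below 0.05, beside 0.0122% of all tested contigs. An unadjusted p under 0.05 was found for 8. The partners of BICD2 and UBP19 are among these, and their difference is not independent of how the 4 were chosen. No share over all contigs is given for that p, so the 8 cannot be read as an excess or a lack. Among the 37, 4 (10.8%) were higher and 3 (8.11%) lower without overlap, set against 3.29% and 3.07% of all tested contigs, and 2 of the 4 are partners.

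The STAU1 cluster was the largest, with 27 contigs in 23 components. Of its 26 others 19 were tested, with 9 higher and 10 lower and log2 fold changes from -0.61 to 0.29. TR10064|c10_g1_i1, the most abundant, stood at 47.4 ± 4.54 and 47.5 ± 7.51 CPM in control and repeatedly amputated limbs (SD, n = 4 each). TR10064|c8_g1_i1 (8.07 ± 0.714 and 6.38 ± 0.659 CPM) and TR10064|c13_g1_i1 (6.88 ± 0.576 and 5.68 ± 0.523 CPM) were lower without overlap, with FDR values of 0.400 and 0.481 in edgeR's test. Among the others, TR10064|c2_g1_i1, TR10064|c5_g1_i1, TR10064|c4_g1_i1, TR10064|c9_g1_i1, TR10064|c18_g1_i1 and TR10064|c14_g1_i1 had group means of 9.48 to 15.5 CPM in the controls and 9.67 to 14.3 CPM after repeated amputation, all with overlap. The 7 untested ones had at most 8.46 counts in any library.

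The whole STAU1 cluster held 184 ± 8.73 and 176 ± 9.70 CPM (SD, n = 4 each), a log2 fold change of -0.07 (SE 0.0770, FDR = 0.732 over 14463 read clusters with edgeR's test, of which 0.0138% had an FDR under 0.05). With the pair left out it was at 163 ± 8.71 and 156 ± 8.21 CPM (exact two-sided permutation test, p = 0.429). The groups overlapped either way. The named contig held 2.11 CPM of the whole cluster in the controls, so the cluster sum could not show its loss.

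The BICD2 cluster was the exception in direction. It has 4 contigs in 1 component, and all 3 others were higher in repeatedly amputated limbs without overlap. TR11067|c0_g3_i1, the longest of them at roughly 4227 bases, had 217, 251, 234 and 174 counts in the controls, then 278, 241, 213 and 265 after repeated amputation. Scaled for depth this was 12.2 ± 1.50 and 15.5 ± 1.90 CPM (SD, n = 4 each), a log2 fold change of 0.35 (SE 0.136, FDR = 0.401). TR11067|c0_g4_i1 stood at 2.46 ± 0.273 and 3.03 ± 0.160 CPM (log2 fold change 0.30, SE 0.155, FDR = 0.530, edgeR). The counts of both were whole in every library, so no division of fragments with the BICD2 contig was seen. Whole counts do not show that none were shared, since the partner's were also whole in every repeatedly amputated limb.

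These 2 contigs together, the BICD2 cluster without its pair, were at 14.7 ± 1.50 CPM in control and 18.5 ± 1.88 CPM in repeatedly amputated limbs, a log2 difference of 0.32 with no overlap. The exact two-sided permutation test gave p = 0.0286, the smallest that 4 limbs against 4 allow. The same exact test gave p = 0.429, 0.343 and 0.171 for the STAU1, UBP19 and LAAT1 clusters without their pairs, so that 1 of 4 clusters compared was under 0.05. These p-values are not adjusted for the 4 comparisons. Leaving out the pairs follows a partner rule that was set after values were seen. The whole BICD2 cluster was at 18.1 ± 2.34 and 21.7 ± 1.31 CPM, where the groups overlapped and the log2 fold change was 0.25 (SE 0.109, FDR = 0.359, edgeR). Over all tested read clusters, 7.34% separated the groups in either direction.

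The UBP19 cluster has only 3 contigs. Beside the pair it holds TR26598|c0_g1_i1, at 17.8 ± 2.16 and 15.9 ± 3.63 CPM (SD, n = 4 each) and overlapping between groups (log2 fold change -0.16, SE 0.174, FDR = 0.794, edgeR). The cluster sum was 73.4 ± 11.3 and 64.8 ± 8.89 CPM, a log2 fold change of -0.19 (SE 0.139, FDR = 0.579). The named contig held 21.4 CPM of this sum in the controls. Its loss alone would lie just inside the 95% interval of 0.705-fold to 1.09-fold, so the cluster sum cannot show whether it was lost.

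The LAAT1 cluster has 21 contigs in 14 components. Of the 20 others 13 were tested, 5 higher and 8 lower. The only one without overlap was TR26334|c8_g1_i1, with 43, 20, 36 and 26 counts in the controls, then 8, 7, 13 and 13 after repeated amputation. It stood at 1.75 ± 0.555 and 0.637 ± 0.195 CPM (SD, n = 4 each), a log2 fold change of -1.44 (SE 0.332) that did not pass the threshold (FDR = 0.281, edgeR). It was 1 of 4 others in the cluster with an unadjusted p under 0.05 in that test. No share over all contigs is given for that p, so these 4 cannot be read as an excess. All 4 were lower and short of the FDR threshold. The remaining 3 were TR26334|c0_g2_i1 (1.29 ± 0.536 and 0.567 ± 0.187 CPM), TR26334|c5_g1_i1 (1.95 ± 0.889 and 0.906 ± 0.192 CPM) and TR26334|c6_g1_i1 (1.49 ± 0.551 and 0.772 ± 0.275 CPM). Taken alone, the groups of each overlapped. The untested TR26334|c0_g1_i1 had 14.69, 0, 50.83 and 0 counts in the controls, then 0, 0, 12 and 7.5. Its fractional parts added up to whole numbers with those of TR26334|c0_g2_i1, so the overlap of TR26334|c0_g2_i1 alone does not describe their sum. Added together in CPM, the 2 contigs were lower in every repeatedly amputated limb than in any control limb, narrowly so between Control6 and MR5. Over all pairs, 6.44% had sums without overlap. TR26334|c9_g1_i1, the most abundant beside the pair, was at 19.0 ± 3.61 and 20.9 ± 2.43 CPM with overlap. TR26334|c4_g2_i1 (5.44 ± 1.18 and 6.38 ± 1.04 CPM) and TR26334|c3_g1_i1 (4.64 ± 0.577 and 4.44 ± 0.770 CPM) also overlapped between the groups.

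Another assembled gene of this cluster, TR26334|c4_g1, also changed its split between libraries. Its isoform i3 had 405.23, 250.09, 446.92 and 83.21 counts in the controls, then 0, 0, 149.99 and 0 after repeated amputation. Isoform i1 had 0, 90.43, 0 and 275.17 counts in the controls, then 328.79, 370.79, 138.83 and 337.76 after repeated amputation, so i1 was low or at 0 where i3 was high. Isoform i4 had 121.08 to 136.12 counts in the controls and 4.97 to 140.24 after repeated amputation, and i2 was at 0 in 2 limbs of each group. Summed over its 4 isoforms the gene stood at 31.0 ± 1.70 and 26.7 ± 1.47 CPM (SD, n = 4 each), lower in every repeatedly amputated limb, with a log2 fold change of -0.21 (SE 0.0852, FDR = 0.377, edgeR). The whole LAAT1 cluster was at 96.9 ± 9.60 and 91.9 ± 6.42 CPM with overlap (log2 fold change -0.09, SE 0.0974, FDR = 0.753). The named LAAT1 contig held 13.9 CPM of this sum in the controls. Its loss alone would lie within the 95% interval of 0.808-fold to 1.10-fold, so the cluster sum cannot show whether it was lost.

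**Figure D3:**
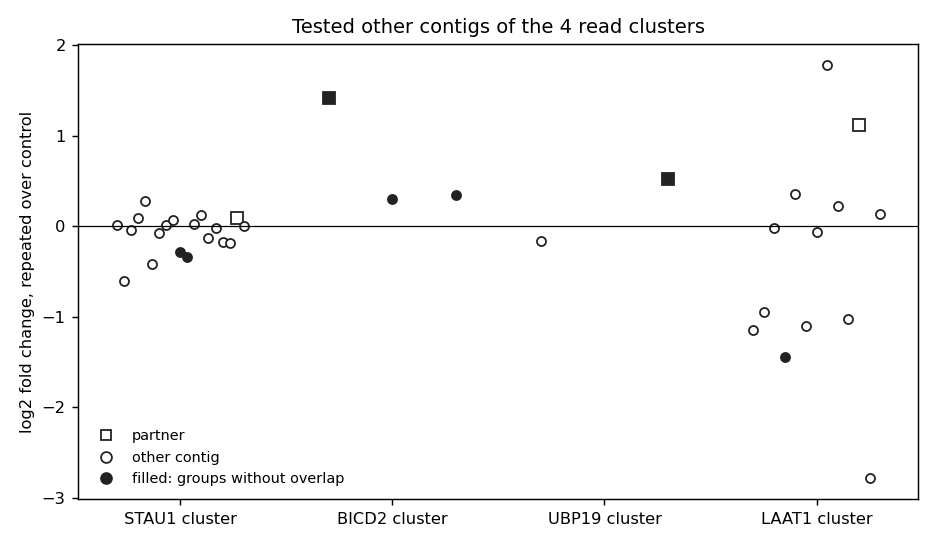
Log2 fold changes (vertical axis) of the 37 tested other contigs of the read clusters of STAU1, BICD2, UBP19 and LAAT1, spread sideways within a cluster from the lowest to the highest CPM in control limbs. Squares are partners, circles are the remaining contigs, and filled symbols mark the 7 whose groups did not overlap, 4 above and 3 below 0.

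The 4 contigs were then set beside every contig of the same pattern. In all, 11 of 91843 contigs (0.012%) were at 0 in every repeatedly amputated limb and above 3 counts in every control limb, and 8 contigs showed the mirror image, at 0 in every control limb. By summed counts in control limbs UBP19 ranked 2nd, LAAT1 3rd, BICD2 8th and STAU1 9th of the 11. A further 22 contigs lay just outside, with up to 3 counts over all repeatedly amputated limbs. Without the requirement on the other group, 2950 contigs were at 0 in every repeatedly amputated limb and 2599 in every control limb.

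Of the 11, 7 had a partner, and 6 of these 7 had pair sums that overlapped between the groups, which is the usual state, since 6.44% of all pairs did not overlap. Besides the 4 described here these were TKTL2 (TR24446|c0_g1_i1), named for a transketolase-like enzyme of sugar metabolism, and the unnamed TR30099|c0_g3_i1. The exception was MUC3A (TR18673|c1_g2_i1), named for a mucin of the cell surface. It had 22, 262.7, 16.53 and 10 counts in the controls, and its pair had 22, 282, 23 and 10 counts there against 3, 1, 1 and 2 after repeated amputation, so the sum was lower in every repeatedly amputated limb. The rest of the 11 had no partner to be summed with. Over whole read clusters, the sums of 4 of the 11 (36.4%) did not overlap, beside 7.34% of all tested read clusters. Each of these sums includes the contig that was at 0.

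Of the 8 contigs at 0 in every control limb, 6 had a partner, and all 6 pair sums overlapped between the groups, as most pairs do. Among them is GNA1 (TR10238|c0_g1_i1), named for an enzyme of amino sugar synthesis, which had 150.18, 299.27, 389.37 and 446.68 counts after repeated amputation. Its pair had 552, 527, 423 and 478 counts in the controls, then 376, 374, 560 and 518 after repeated amputation. Contigs of this kind thus occurred in both directions. These classes were defined by the same counts, so the numbers are descriptions.

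**Figure D4:**
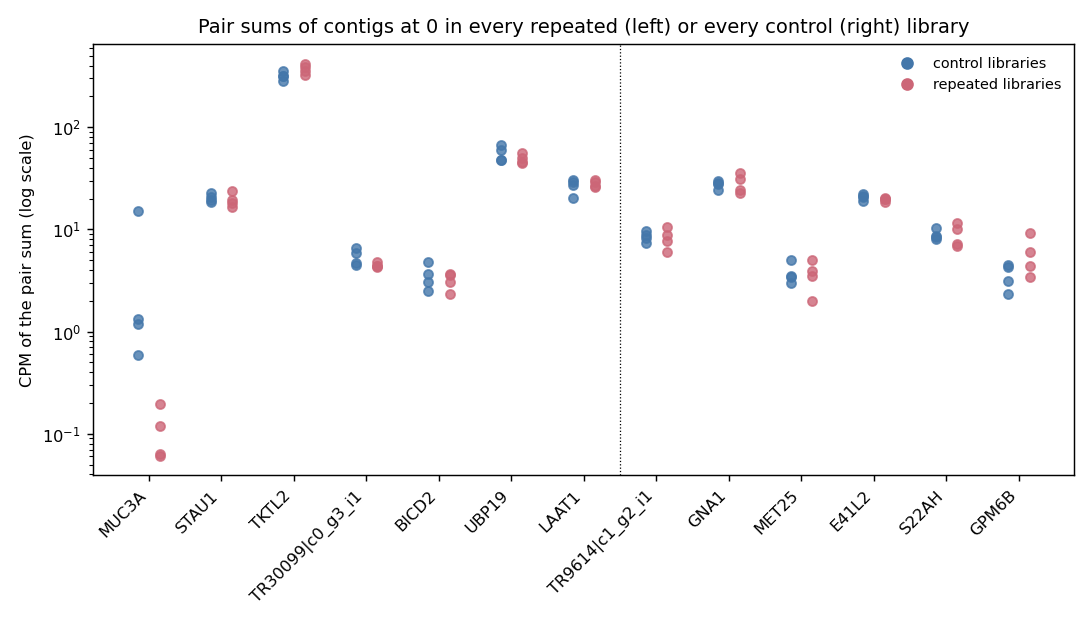
CPM of the pair sum (vertical axis, log scale) in the 4 control (blue) and 4 repeatedly amputated (red) limbs for the 7 contigs at 0 in every repeatedly amputated limb (left of the dotted line) and the 6 at 0 in every control limb (right) that have a partner. The groups overlap for 12 of the 13 pairs, and MUC3A is the exception.

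The study's table lists transcripts that were selected on these libraries. Of its entries 892 matched 1 contig each, and 69 were at 0 in every repeatedly amputated limb. A partner was found for 28 of these, with overlapping pair sums for 24. At 0 in every control limb were 116 entries, of which 38 had a partner and 36 of these overlapping sums. Over all 892 entries 150 had a partner, and 119 of these pair sums overlapped. The share of pair sums without overlap was thus 14.3% and 5.26% for the entries at 0 in repeatedly amputated and in control limbs and 20.7% for all entries, beside 6.44% of all pairs.

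Entries of the table with related names showed how the 4 stood among their functional relatives, which the study also picked on these libraries. Each list includes 1 of the 4 contigs, namely UBP19, STAU1, BICD2 and LAAT1 in this order. That contig is counted below among the lower ones, a direction fixed by its choice, and among the overlapping pair sums. The ubiquitin list has 19 contigs, 9 of them tested, 6 higher and 3 lower, UBP19 among the latter. The tested KLH31, KLH34 and TRI63 contigs, all higher, had the highest counts of each group in Control4 and MR5, as did the summed muscle CPM. The part of muscle content in these values was not tested. The only call was TRI27 (TR16558|c6_g1_i1), named for a ubiquitin ligase, beside 0.0122% of all tested contigs. It rose from 0, 1, 0 and 0 counts in control limbs to 475, 529, 250 and 196 in repeatedly amputated limbs (FDR = 0.00896, edgeR). Over all pairs 6.44% did not overlap, the share to set beside such counts here and for the lists below. Of the 7 contigs of this list with a partner, 6 had overlapping pair sums. The exception was KEAP1 (TR29733|c3_g1_i2), named for an adaptor of a ubiquitin ligase, whose pair had 286, 424, 407 and 239 counts in the controls, then 693, 919, 992 and 531. RN125 (TR5071|c1_g2_i1), also a ubiquitin ligase by name, had 246, 118.56, 141 and 236 counts in the controls, then 32.21, 0, 0 and 0.01. Its pair had 246, 161, 141 and 236 against 113, 140, 110 and 113. In counts these were all lower after repeated amputation, and they overlap only once scaled for depth. CDC16 (TR8527|c0_g2_i1), a subunit of the anaphase-promoting complex, went the other way, from 0 in all control limbs to 0, 236.7, 75.4 and 182 counts, with pair sums of 260, 218, 260 and 201 against 220, 263, 176 and 208.

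Among 8 entries for RNA binding and processing 3 were tested, with no FDR under 0.05. Of these 2 were higher, and the 1 lower was the STAU1 contig itself. The 3 with a partner, STAU1 among them, all had overlapping pair sums. PCF11 (TR1013|c0_g1_i1), named for a factor in cleavage of the mRNA 3′ end, had 27.16, 18.91, 0 and 10.32 counts in the controls and 0 in every other library. Its pair had 163, 109, 121 and 135 counts in the controls, then 107, 105, 106 and 114.

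Of 5 entries for transport along the cytoskeleton 3 were tested, again with no FDR under 0.05. Here 2 were higher, and the 1 lower was the BICD2 contig itself. All 3 with a partner, BICD2 among them, had overlapping sums. MYO5B (TR3045|c14_g3_i1), named for a myosin that carries vesicles along actin, had 188.37, 0, 80.04 and 223.37 counts in the controls and 0 in every other library. Its pair overlapped between the groups, at 410, 485, 387 and 420 counts against 407, 406, 351 and 436.

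The 11 entries for lysosomal and solute transport included 3 that were tested, the LAAT1 contig among them, all lower and none with an FDR under 0.05. Of the 5 with a partner 4 had overlapping pair sums, and the exception was S38A3 (TR10997|c0_g2_i1), named for an amino acid transporter, with pair sums of 5, 8, 8 and 0 counts in the controls, then 41, 8, 71 and 16, which do not overlap once scaled for depth. CTNS (TR3394|c0_g2_i1), named for cystinosin, the lysosomal exporter of cystine and thus a neighbour of LAAT1 in function, was at 0 in all control limbs and had 358.7, 0, 0 and 257.37 counts after repeated amputation. The CTNS pair had 390, 547, 342 and 415 counts in the controls, then 530, 467, 533 and 441, with overlap.

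Profiles on log2(CPM + 0.5) across the 8 libraries were compared with 255 candidates, named entries of the study's table that were called different on these same libraries. The most similar were all lower after repeated amputation, a direction fixed by how the 4 were chosen. For STAU1 these were LFG1 (Pearson r = 0.976), TKTL2 (0.950) and NGAP (0.948). For BICD2 they were TKTL2 (0.967), RDH7 (0.954) and IGHM (0.953). For UBP19 they were LFG1 (0.987), HV02 (0.956) and GRAA (0.950), and for LAAT1 KV403 (0.913), TKTL2 (0.909) and RDH7 (0.900). IGHM, HV02 and KV403 are immunoglobulin names and GRAA is granzyme A of cytotoxic lymphocytes. Between the 4 contigs themselves r was 0.794 to 0.982. All points share 8 libraries and the 0 counts of 4 of them, so these values describe the likeness of profiles and were not tested. High r follows from the choice of both sides by the same group difference, and the names found carry no further meaning here.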

How the data were processed

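RNA from 8 limb stumps was sequenced as paired 50 bp reads on an Illumina HiSeq instrument from TruSeq v2 libraries, with CASAVA 1.8.2 and RSEM named in the submitters' processing notes. The authors assembled reads with Trinity, applied an FPKM threshold of 2 to the initial assembly, annotated it with Trinotate and tested RSEM counts with edgeR. The deposited expected counts are RSEM estimates per contig and library without normalization. The deposited FPKM values were scaled between libraries by TMM, by the authors. Column names give the group of a library and not the animal, and the labels name no batch. The versions of Trinity and RSEM are not given in the sources used here.

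The 4 contigs, the lists and the tests were chosen with earlier results of these data known. Protein names came from the study's table of differentially expressed transcripts by matching mean FPKM plus 1 to 5 decimals, which placed 892 of 912 entries. Contig names occur in no other table used here, and no sequence is shown. The contigs named are the 4, the other tested contigs of their read clusters (up to 8 a cluster by CPM), the 3 most similar named contigs of each, and entries of the lists. The contigs at 0 in 1 group, the partner rule, the split of pairs and TR26334|c4_g1 were chosen after values were seen. So were TR10064|c8_g1_i1, TR10064|c13_g1_i1, TR26334|c8_g1_i1, TR26334|c0_g2_i1, TR26334|c0_g1_i1, TR26334|c5_g1_i1 and TR26334|c6_g1_i1. This also holds for TGM1, LAMA3, LAMB3 and the list examples.

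Expected counts were rounded, filtered with filterByExpr, scaled by TMM and fitted with edgeR 4.0.16 (quasi-likelihood F-test, robust) in R 4.3.3 for contigs, read clusters and pairs, with Benjamini-Hochberg adjustment over all units fitted. Standard errors came from the F statistic. Single sums were compared on log2(CPM + 1) by exact permutation over 70 arrangements. Alternatives were DESeq2 1.42.0 size factors and Wald test, edgeR's exact test, other filters, limma 3.58.1 on log2(FPKM + 1) and log2(FPKM + 0.1), other levels of summing, and each library left out. The count tests were tested on simulated data. The floor of 3 counts covers counting error only.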

Additional observations from a re-analysis of the deposited data

How the results depend on the processing

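The number of contigs with an FDR under 0.05 depended on the test and the filter. Against 4 it was 21 with no filter, 9 with at least 10 summed counts, 369 with edgeR's exact test, 883 with DESeq2's Wald test, 11 and 9 with limma on log2(FPKM + 1) and log2(FPKM + 0.1), and 2 to 14 with a library left out. For read clusters it was 2, and 26 with no filter, 369 with the exact test, 658 with DESeq2 and 0 to 36 with a library left out. With pairs summed it was 1, and 101, 5, 510 and 947 with no filter, at least 10 counts, the exact test and DESeq2, and 0 to 12 with a library left out. The cause of these differences was not tested.

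No pair sum passed a threshold under any alternative, and the direction held under every alternative for UBP19 but not for STAU1, BICD2 and LAAT1. With a library left out, the fitted log2 fold change of the STAU1 pair ran from -0.179 to 0.0136 (positive without MR6), that of BICD2 from -0.278 to 0.0422 (positive without Control4) and that of LAAT1 from -0.0465 (without Control1) to 0.128. As differences of mean log2(CPM + 1), the BICD2 pair ran from -0.212 to 0.0304 (positive without Control4 and without MR14) and the LAAT1 pair from -0.0477 (without Control1) to 0.144, and the latter was -0.0018 on summed FPKM. The sum of the cluster without the named contig but with its partner was -0.05 for STAU1 (0.0737 within the component), 0.32 for UBP19 (0.53 within the component, which is the partner alone, and -0.17 without the partner) and 0.18 for LAAT1 (-0.22 on summed FPKM, -0.13 without the partner). For BICD2 it was 0.44, and 0.38 to 0.50 with a library left out. These sums hold the partner and are given without a test. At over 10 counts, 7 in place of 11 contigs were at 0 in repeatedly amputated limbs. Among these 11, the sums of 4 read clusters (36.4%) did not overlap between the groups, beside 7.34% of all tested read clusters. This compares with 2 components (22.2%) of the 9 contigs with others in the component and 0 assembled genes of the 2 with others in the gene. No share over all components or assembled genes is given. No paired analysis was made, since each library came from a separate animal and neither the design nor the labels give a pairing.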
